A study of Homo sapiens with 12 samples.

Results

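A set of 9 genes known to respond to low oxygen but outside glycolysis was followed here, namely BNIP3, P4HA1, BHLHE40, NDRG1, MXI1, KDM3A, VEGFA, EGLN1 and DDIT4. All 9 were found by symbol among the 9529 genes of the deposited expression table, each with a value in every one of the 12 libraries. They were chosen by name with earlier results of the comparison of shALKBH5 with shNS in these libraries known. Their difference between those arms is therefore given as a description, with no test. Tests on them are kept to contrasts on which that choice did not rest, although earlier results of these data were known. The difference of the changes between the arms is an exception, since it is built from that same comparison.

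The libraries were made from NOMO-1, a cultured human line of monocytic acute myeloid leukaemia. Cells carried a hairpin against ALKBH5, an enzyme that removes the methyl group of N6-methyladenosine from RNA, or a non-targeting hairpin (shNS), and were selected with puromycin. Every cell of the series was thus transduced with lentivirus and drug-selected, the shNS cells included. All were then held in actinomycin D, which blocks transcription, for 0, 8 or 12 h, and poly(A) RNA was sequenced. Each of the 3 shALKBH5 groups held 1 library of each of 2 hairpin lines, called D and E by the letters of the header, and each of the 3 shNS groups held 2 replicates. Which letter belongs to which numbered hairpin was not stated. The titles were followed for the target and the drug, although the protocol text of the labels speaks of lentivirus against FTO and of other drugs.

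In cells with enough oxygen, prolyl hydroxylases of the EGLN family mark the hypoxia-inducible factor subunit HIF1A, the VHL ubiquitin ligase binds the mark, and the subunit is destroyed. When oxygen is scarce the subunit escapes, pairs with ARNT and binds a short DNA motif with the core A/GCGTG, the hypoxia response element, near its target genes. Targets outside glycolysis serve the removal of mitochondria, the growth of vessels, the making of collagen, the braking of growth signals, and the feedback on the sensor itself.

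To show what the genes share in sequence, promoter windows of RefSeq (build GRCh38.p14, 250 bases before to 50 bases after the start) were searched for the 5 letters ACGTG on either strand. A match whose letters read CACGTG is a palindrome, holds the core on both strands and is also an E-box, so it was counted once. Windows were at hand for 7 of the 9 genes, and VEGFA and NDRG1 were not among them. The core was present in a window of 6 of these 7 genes, namely BNIP3, P4HA1, BHLHE40, EGLN1, DDIT4 and 1 of the 3 start sites of MXI1. Neither of the 2 windows of KDM3A held it. These windows overlap, and both held the same 1 match of GCGTG, the other form of the core. Over all 35116 windows the share with ACGTG was 21.4%, and over the 7277 genes of the deposited table that had a window it was 34.0%. For GCGTG or its complement the share was 60.2% of these table genes and 57.1% of the 7 genes above. For CACGTG it was 13.8% of the table genes and 28.6% of the 7. The windows of 4 genes are shown, 5′ to 3′ on the strand of the gene, with the matches in capitals. They belong to the 2 genes whose difference across times was largest with both lines pooled, to a repressor that itself binds E-boxes, and to the oxygen sensor.
BNIP3, chr10:131981874-131982173, minus strand: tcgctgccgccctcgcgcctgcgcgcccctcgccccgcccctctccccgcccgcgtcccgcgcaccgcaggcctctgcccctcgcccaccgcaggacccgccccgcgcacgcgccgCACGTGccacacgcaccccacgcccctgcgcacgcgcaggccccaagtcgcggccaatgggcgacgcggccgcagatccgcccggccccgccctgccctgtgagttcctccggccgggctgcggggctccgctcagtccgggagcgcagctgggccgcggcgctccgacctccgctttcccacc
P4HA1, chr10:73096817-73097116, minus strand: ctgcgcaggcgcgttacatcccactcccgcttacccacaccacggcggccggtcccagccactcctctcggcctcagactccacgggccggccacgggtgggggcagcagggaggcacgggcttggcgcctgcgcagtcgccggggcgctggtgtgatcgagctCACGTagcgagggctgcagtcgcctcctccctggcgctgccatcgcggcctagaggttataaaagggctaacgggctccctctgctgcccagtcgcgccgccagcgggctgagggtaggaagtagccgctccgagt
BHLHE40, chr3:4979187-4979486, plus strand: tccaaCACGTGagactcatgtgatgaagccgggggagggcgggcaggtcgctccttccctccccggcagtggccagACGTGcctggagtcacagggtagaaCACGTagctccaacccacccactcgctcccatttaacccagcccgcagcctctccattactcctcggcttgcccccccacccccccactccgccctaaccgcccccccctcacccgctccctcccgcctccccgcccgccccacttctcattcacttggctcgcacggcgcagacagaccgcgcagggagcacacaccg
EGLN1, chr1:231422238-231422537, minus strand: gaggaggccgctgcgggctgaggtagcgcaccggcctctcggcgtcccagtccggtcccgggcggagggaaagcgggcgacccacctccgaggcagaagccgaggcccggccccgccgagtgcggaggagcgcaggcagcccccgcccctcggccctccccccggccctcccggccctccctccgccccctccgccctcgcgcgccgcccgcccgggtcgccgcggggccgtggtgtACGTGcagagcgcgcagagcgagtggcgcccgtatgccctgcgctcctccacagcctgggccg
The match of BNIP3 began 134 bases before the start and was the palindrome, with 4 matches of GCGTG or its complement in the same window. BHLHE40 held 3 matches, beginning 245, 174 and 149 bases before the start, the first of them the palindrome. P4HA1 held 1 match 86 bases before the start, and EGLN1 held 1 match 13 bases before it. A match is a description of these letters, not a measurement of binding.

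Values are a normalised signal per gene, apparently scaled to spike-in RNA, and they cannot be set side by side between genes because gene length may enter them. The total signal of all genes was between 945067 and 953211 in shALKBH5 and between 826000 and 937164 in shNS at 0 h, and at 12 h it was between 143765 and 186750 in shALKBH5 and between 167376 and 193639 in shNS. Read depth is unknown and no interval for counting error is given. ALKBH5 itself had a signal of 25.4 in line D and 21.2 in E at 0 h, against 84.3 and 78.6 in the shNS replicates, and it was lower in both knockdown libraries at 8 and 12 h as well. Of 10 monocytic leukaemia markers 6 were in the table and of the lymphoid markers 2, and none of the erythroid, megakaryocyte, epithelial or kidney markers looked for was among its genes. Every listed gene lay above a lowest signal that differed by library (0.338 to 2.23), so a gene that sank below it may be missing from the table. EGLN1 was the member closest to that limit, at 1.39 times the lowest listed signal in line D at 8 h and 1.56 times in line D at 12 h.

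EGLN1 encodes the prolyl hydroxylase that serves as the main oxygen sensor, and it is itself a target of the factor it destroys. Before actinomycin D its signal was 13.1 in line D and 9.31 in E, against 22.8 and 18.6 in the shNS replicates. At 8 h it was 1.05 in line D and 1.815 in E, against 4.22 and 3.56 in shNS. At 12 h it was 0.676 in line D and 0.721 in E, against 1.16 and 1.195 in shNS. The knockdown libraries were the lower pair at each time, with line E the lower of them at 0 h and line D at 8 h. On the log2(signal + 1) scale, where changes of low genes come out too small, the difference of shALKBH5 minus shNS was -0.84 ± 0.21 (SE, n = 2 libraries each) at 0 h and -0.74 ± 0.14 (SE, n = 6 each) across the 3 times. The 6 libraries of an arm are 3 times of 2 lines or replicates, not 6 independent units. The fit across times has no term for line, so here and below its SE may be too small.

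Of the members that act on mitochondria and growth signals, BNIP3 encodes an outer-membrane receptor that marks mitochondria for autophagy. Its signal at 0 h was 31.3 in line D and 38.1 in E, against 95.6 and 89.3 in the shNS replicates. At 8 h it was 6.44 in line D and 18.7 in E, against 48.3 and 42.0 in shNS, and at 12 h 2.12 and 6.22 in these lines against 15.4 and 14.7. Line E held about the same share of the shNS mean throughout (41.2%, 41.3% and 41.3% at 0, 8 and 12 h), whereas line D was at 33.9% at 0 h and at 14.3% and 14.1% later. The difference was -1.39 ± 0.42 (SE, n = 2 each) at 0 h and -1.69 ± 0.22 (SE, n = 6 each) across times.

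DDIT4 encodes REDD1, a protein that restrains mTORC1 under low oxygen and other stress. At 0 h its signal was 121 in line D and 238 in E, against 294.5 and 266 in the shNS replicates, so line E came close to shNS. By 8 h it stood at 3.63 in line D and 4.305 in E, against 10.02 and 8.465 in shNS, and by 12 h at 2.04 in line D and 3.30 in E, against 3.89 and 3.76. The groups did not overlap at any time, but line E lay at 85.0% of the shNS mean at 0 h and at 86.3% at 12 h. Its difference at 0 h, -0.72 ± 0.29 (SE, n = 2 each), split into -1.20 for line D and -0.23 for line E, and across times it was -0.73 ± 0.17 (SE, n = 6 each).

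NDRG1, on chromosome 8, encodes a cytoplasmic stress-response protein used widely as a hypoxia marker. Its signal was 169 in line D and 341 in E at 0 h, against 597 and 579.6 in the shNS replicates. The values were 67.1 in line D and 215 in E at 8 h, against 377 and 347 in shNS, and 30.1 in line D and 78.1 in E at 12 h, against 139 and 128. Line D lay between 18.5% and 28.8% of the shNS mean at the 3 times, and line E between 57.9% and 59.3%. The difference across times, -1.44 ± 0.25 (SE, n = 6 each), was -2.11 when D alone stood for the knockdown and -0.77 when E did.

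The matrix and the vessels are served by 2 members. P4HA1 encodes the catalytic subunit of prolyl 4-hydroxylase, which modifies collagen in the endoplasmic reticulum. It had a signal of 31.9 in line D and 54.7 in E at 0 h, against 113 and 91.1 in the shNS replicates. At 8 h it had 10.45 in line D and 29.5 in E, against 86.9 and 71.7 in shNS, and at 12 h 4.685 in line D and 9.88 in E, against 30.0 and 28.8. The difference was -1.26 ± 0.42 (SE, n = 2 each) at 0 h and -1.77 ± 0.23 (SE, n = 6 each) across times. Split by line the difference across times was -2.29 for D and -1.25 for E.

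VEGFA encodes the growth factor that drives the sprouting of vessels. Its signal at 0 h was 143 in line D and 202 in E, against 306 and 294 in the shNS replicates. At 8 h it was 25.1 in line D and 47.3 in E, against 95.6 and 86.8 in shNS, and at 12 h 14.7 in line D and 17.0 in E, against 47.0 and 46.0. Line E was well above line D at 0 and 8 h and close to it at 12 h. The difference across times was -1.23 ± 0.17 (SE, n = 6 each).

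Another 3 members act on transcription. BHLHE40 encodes a repressor that binds E-boxes and takes part in the circadian clock. Its signal was 144 in line D and 167 in E at 0 h, against 378 and 363 in the shNS replicates. At 8 h it was 14.3 in line D and 9.42 in E, against 48.6 and 44.4 in shNS, and at 12 h 9.93 in line D and 3.86 in E, against 22.8 and 22.1. In contrast to BNIP3 and NDRG1, the later libraries of line E were the lower ones, at 20.3% and 17.2% of the shNS mean against 30.7% and 44.3% in line D. The difference across times was -1.62 ± 0.18 (SE, n = 6 each).

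MXI1 encodes a partner of MAX that competes with MYC. Its signal at 0 h was 38.5 in line D and 39.3 in E, against 77.3 and 63.2 in the shNS replicates, at 8 h 13.6 in line D and 19.2 in E against 54.1 and 45.7, and at 12 h 7.002 in line D and 6.57 in E against 20.7 and 20.3. KDM3A encodes a histone H3 lysine 9 demethylase that needs oxygen for its reaction. At 0 h it had 40.5 in line D and 49.8 in E, against 90.9 and 75.0 in the shNS replicates, at 8 h 5.81 in line D and 6.99 in E against 23.2 and 19.7, and at 12 h 3.19 in line D and 2.73 in E, against 8.47 and 8.13. The differences across times were -1.29 ± 0.15 for MXI1 and -1.23 ± 0.14 for KDM3A (SE, n = 6 each), at -1.35 in line D and -1.22 in E for MXI1 and -1.29 in line D and -1.17 in E for KDM3A.

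**Figure D1:**
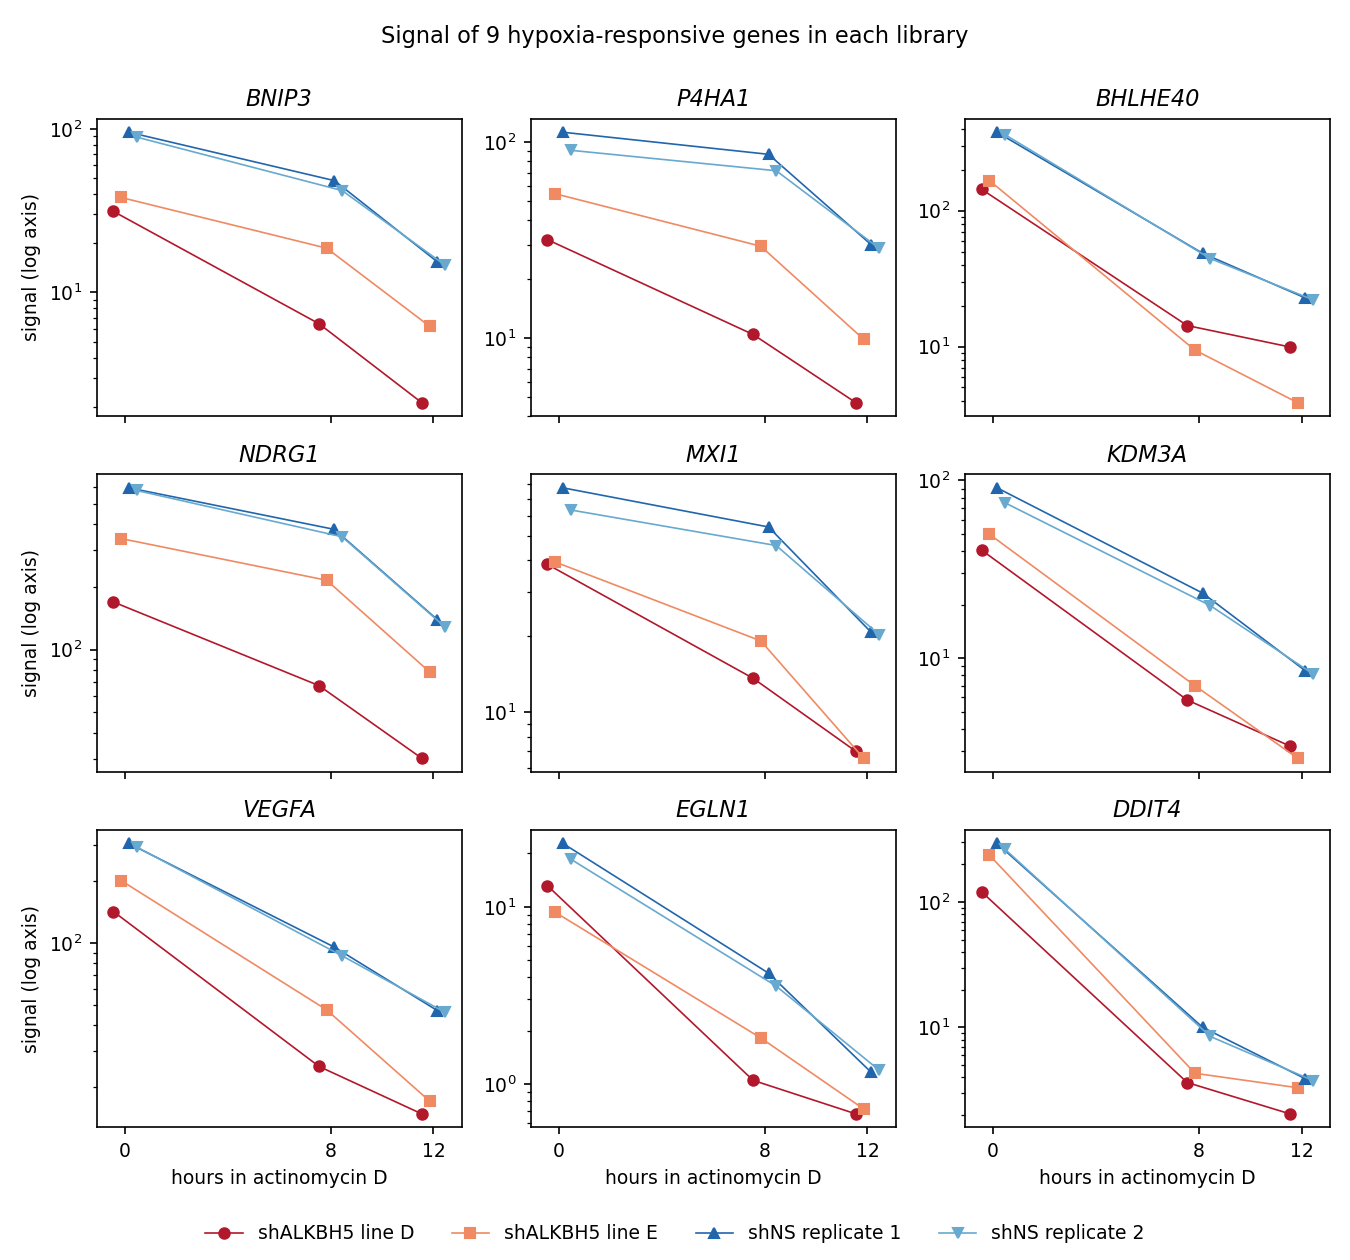
Signal of each member (vertical log axis, no unit) against hours in actinomycin D in the 4 series of libraries, shALKBH5 line D and line E and shNS replicates 1 and 2, with points moved sideways so that all are visible. Both shALKBH5 lines lie below both shNS replicates in every panel and at every time, line D below line E for NDRG1, P4HA1 and BNIP3 and above it for BHLHE40 at 8 and 12 h.

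Both knockdown libraries lay below both shNS libraries for 9 of 9 members at 0, 8 and 12 h. The same held for 6.88% of all genes at 0 h, 42.8% at 8 h, 25.0% at 12 h and 5.24% at all 3 times. Because the members were chosen with this difference known, nothing is read from that count. The median difference of all genes was 0.23 at 0 h and 0.02 across times on the log2 scale, and that of the 9 members -0.86 and -1.29. Of all genes, limma called 0.136% lower and 1.33% higher at 0 h, and 9.14% lower and 11.9% higher across times (adjusted p under 0.05). A bulk library cannot tell fewer expressing cells from less RNA per cell, for these or any other genes. Beside the members, the monocytic markers LYZ, CD68 and ITGAM were higher across times (1.00, 1.11 and 1.33 on the log2 scale, limma adjusted p = 0.000398, 3.87e-05 and 0.00809). CD33 (0.09, adjusted p = 0.666), SPI1 (0.21, 0.239) and CEBPA (0.36, 0.124) were not called. All 6 listed markers had both knockdown libraries above both shNS libraries at 0 h, as did 46.4% of all genes. Between the lines, 2 of the 6 markers were called higher in line D and 0 lower, beside 14.2% and 14.9% of all genes. The part of these markers in the members' difference was not tested.

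Most listed genes of the wider hypoxia programme outside the 9 were lower as well. Their lists too were drawn up with earlier results of this contrast known, so their counts and p-values are not independent evidence of a direction. Of 54 other known hypoxia targets outside glycolysis 34 were in the table. Across times 21 of them fell and 2 rose (limma, adjusted p under 0.05), with a median of -0.72 beside 0.02 for all genes. Of all genes 9.14% were lower and 11.9% higher. The strongest falls were those of GBE1, the glycogen branching enzyme, at -1.58 ± 0.19 (SE, adjusted p = 3.67e-05), ZNF395, a zinc-finger protein, at -1.26 ± 0.21 (0.000707), FAM162A at -1.18 ± 0.20 (0.000707) and ERO1A, an oxidase of the endoplasmic reticulum, at -1.15 ± 0.17 (0.000244). GBE1 had a signal of 89.1 in line D and 105 in E at 0 h, against 225 and 200.2 in the shNS replicates, so its groups stood apart like those of the members. The 2 that rose were HMOX1, the haem-degrading oxygenase that is also driven by oxidative stress, at 1.10 ± 0.28 (adjusted p = 0.0108), and PLAUR, the urokinase receptor, at 0.49 ± 0.15 (0.0289). HMOX1 was uneven between the lines, with 34.8 in line D and 6.97 in E at 0 h against 2.71 and 3.75 in shNS, and the call of PLAUR was lost in 9 of 25 alternatives. With 1 mean per line or replicate in place of 3 libraries, 18 targets were lower and 1 higher, where 2.42% and 2.72% of all genes were called.

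For glycolysis and glucose uptake, given only for comparison, 13 of 22 genes fell and 1, HK1, rose, with a median of -0.52. Of all genes 9.14% were lower and 11.9% higher, and the call of HK1 was lost in 11 of 25 alternatives. ENO2 at -2.16 ± 0.27 (SE, adjusted p = 5.22e-05), PFKFB4 at -2.07 ± 0.45 (0.00439), SLC2A3 at -2.04 ± 0.46 (0.0054) and HK2 at -1.62 ± 0.18 (1.93e-05) had the largest falls with both lines pooled. They were uneven between the lines, at -2.89 for ENO2, -3.39 for PFKFB4, -3.38 for SLC2A3 and -1.96 for HK2 with D as the knockdown, and -1.44, -0.75, -0.69 and -1.27 in the same order with E. With 1 mean per line or replicate 9 glycolysis genes were lower and 0 higher, and the same counts came from a correlation estimated within lines. The count of glycolysis genes that fell was 6 without the 12 h libraries and 7 without the 8 h libraries. At 0 h 1 gene of each list was called lower, HILPDA, a lipid-droplet protein, at -0.89 (adjusted p = 0.0461) among the other targets and SLC2A1, the glucose transporter GLUT1, at -0.94 (0.0346) in glycolysis. These calls were lost in 11 and in 8 of 21 alternatives. Over those alternatives the number called lower at 0 h ran from 0 to 21 among the other targets and from 0 to 9 in glycolysis, and with the line and replicate number as a block it was 19 and 8.

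The sensing pathway itself was listed as well. Among its 15 genes in the table, 1 fell and 1 rose across times, beside 9.14% of all genes lower and 11.9% higher, with a median of 0.10. HIF1A stood at 0.19 ± 0.16 (SE, adjusted p = 0.414), with a signal of 94.5 in line D and 64.5 in E at 0 h, against 59.7 and 51.7 in the shNS replicates. VHL stood at 0.23 ± 0.16 (adjusted p = 0.316) and EPAS1, the HIF2 alpha subunit, at -0.23 ± 0.20 (0.429), none of them past the threshold. ARNT, the partner subunit, fell by 0.47 (SE 0.16, adjusted p = 0.0426), a call lost in 12 of 25 alternatives, where adjusted p ranged from 0.00063 to 0.235. EGLN2, another hydroxylase of the EGLN family, rose by 0.52 (SE 0.13, adjusted p = 0.0114). With 1 mean per line or replicate none of the 15 was called.

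Close relatives of the members were mixed. Of 19 looked for 10 were in the table. Across times 3 of them fell and 2 rose, beside 9.14% of all genes lower and 11.9% higher. BNIP3L, the other mitophagy receptor of this family, fell by 0.97 (SE 0.17, adjusted p = 0.000885), BHLHE41, the paralogue of BHLHE40, by 0.87 (SE 0.15, 0.000836) and JMJD1C, which is related to KDM3A, by 0.53 (SE 0.14, 0.0112). MNT, another MAX partner, rose by 0.40 (SE 0.12, adjusted p = 0.026), and EGLN2 is the other that rose. Of 25 alternatives the call of MNT was lost in 9, that of JMJD1C in 4 and that of EGLN2 in 3. At 0 h BNIP3L had 72.9 in line D and 80.1 in E, against 137 and 105 in the shNS replicates. MXD1, MXD3, MXD4, KDM3B and NDRG3 lay between -0.45 and 0.28 and were not called.

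Genes that work with the members' products were also listed. Of 25 looked for 19 were in the table, and 2 fell and 1 rose, beside 9.14% of all genes lower and 11.9% higher, with a median of 0.09. TXNIP, which binds DDIT4's product and is itself driven by glucose, fell by 1.30 (SE 0.31, adjusted p = 0.00747), and RHEB, the GTPase that activates mTORC1, by 1.06 (SE 0.21, 0.0024). MYC, the antagonist of MXI1, rose by 0.44 (SE 0.14, adjusted p = 0.0298). The calls of TXNIP and RHEB were lost without the 12 h libraries (adjusted p = 0.0759 and 0.0613), that of TXNIP also without the 8 h libraries (0.062), and that of MYC in 9 of 25 alternatives. TSC1, TSC2, MTOR, RPTOR and RPS6KB1 lay between -0.08 and 0.33, and the autophagy genes MAP1LC3B, GABARAPL1, GABARAPL2, FUNDC1 and PINK1 between -0.18 and 0.39, none of them called. P4HB, the partner subunit of P4HA1, was at 0.00 ± 0.14 (adjusted p = 0.987).

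**Figure D2:**
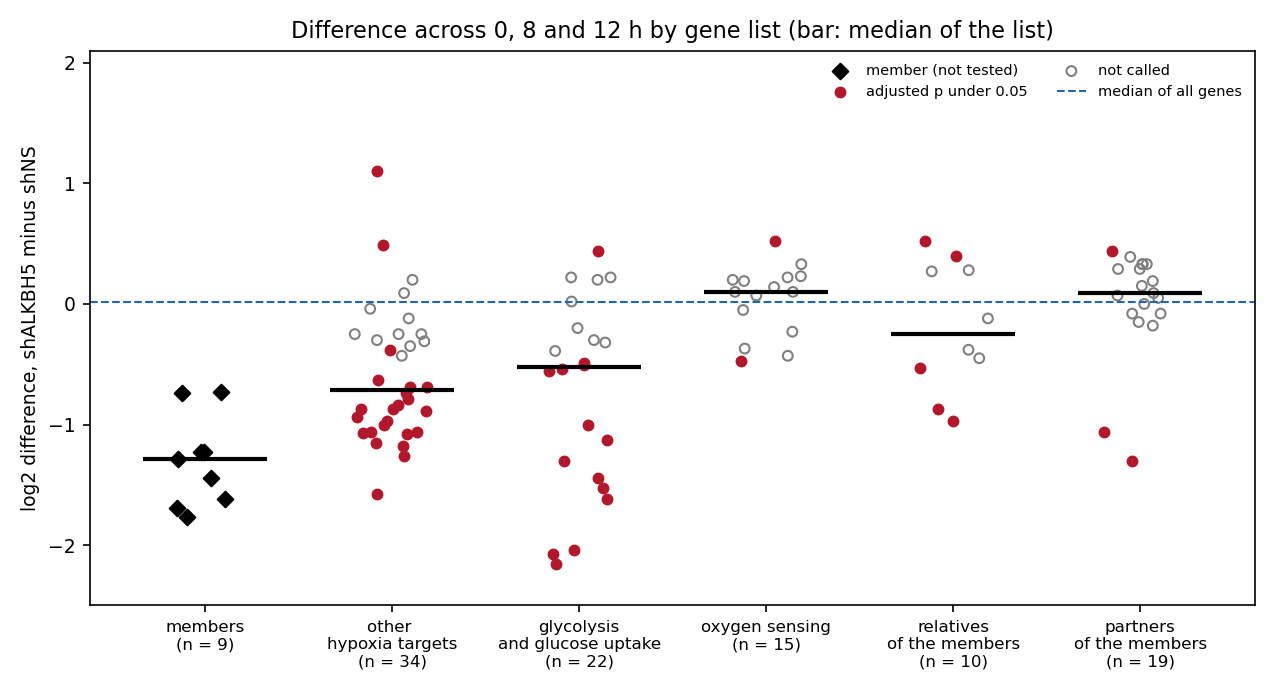
Log2 difference of shALKBH5 minus shNS across 0, 8 and 12 h (vertical axis, log2 of signal + 1) for each gene of 6 lists, with a bar at the median of each list and a dashed line at the median of all genes. Members are shown as black diamonds without a test, and other genes are filled red where adjusted p was under 0.05. The members' median is -1.29, that of the other hypoxia targets -0.72 and that of the oxygen-sensing genes 0.10.

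The members were then compared for how long their RNA lasted once transcription was blocked. The choice of genes did not rest on this, but it was made with earlier results of these data known. For shNS, percent left sets each library against the 0 h library of the same replicate number. No label shows that these numbers follow the same cells, and another pairing would give other shNS percentages. The closeness of the shNS values to each other is therefore not read as their spread. Signal fell for nearly all genes, so percent left is read against the median gene, which kept 23.9% in line D, 33.6% in E and 42.2% and 41.1% in the shNS replicates at 8 h. At 12 h the median gene kept 10.9% in line D, 10.7% in E and 11.9% and 12.9% in shNS. The 9 genes spread from among the shortest-lived of the table to well above its median. DDIT4 lost the most. By 8 h it kept 3.001% in line D, 1.81% in E and 3.40% and 3.19% in the shNS replicates, and at most 0.0525% of all genes kept less in any of these 4 libraries. BHLHE40 kept 9.93% in line D, 5.65% in E and 12.9% and 12.2% in shNS, and EGLN1 7.96% in line D, 19.5% in E and 18.5% and 19.2% in shNS.

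At the other end stood P4HA1, MXI1 and NDRG1. P4HA1 kept 32.8% at 8 h in line D and 53.9% in line E, against 77.1% and 78.6% in the shNS replicates, and in the shNS replicates 90.3% and 93.9% of all genes kept less. MXI1 kept 35.4% in line D and 48.7% in E, against 70.0% and 72.3%. NDRG1 kept 39.7% in line D and 63.1% in E, against 63.2% and 59.9%. BNIP3 kept 20.55% in line D and 48.95% in E, against 50.6% and 47.1%, so that in line E it was level with MXI1. VEGFA kept 17.6% in line D and 23.45% in E, against 31.2% and 29.5%. KDM3A kept 14.3% in line D and 14.0% in E, against 25.5% and 26.3%, and in line E it kept less than EGLN1. At 8 h, 6 of 9 members were below the median gene in line D and 5 of 9 in line E, as were 5 of 9 in each shNS replicate.

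**Figure D3:**
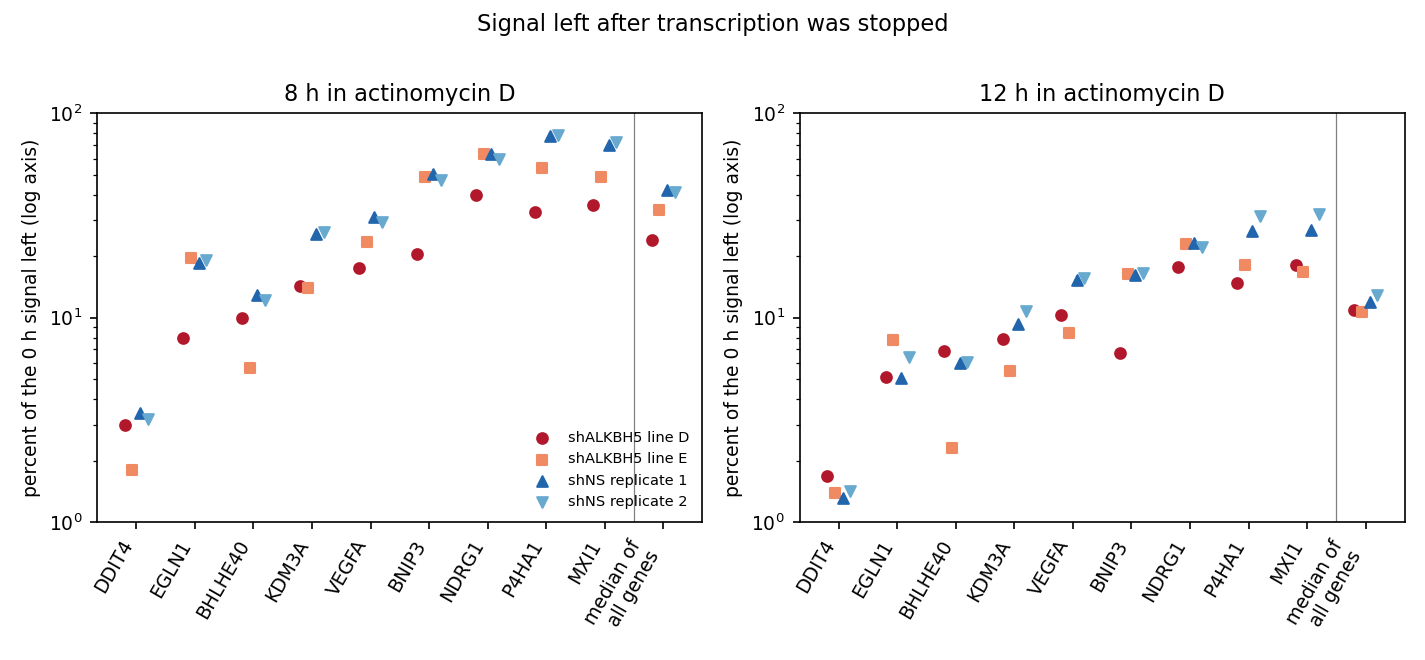
Percent of the 0 h signal left at 8 h and at 12 h in actinomycin D (vertical log axis) for each member and for the median of all genes, in line D, line E and the 2 shNS replicates. Each shNS value uses the 0 h library of the same replicate number. Members are ordered by their mean in shNS at 12 h. DDIT4 is lowest at both times, at 1.32% to 1.69% by 12 h, and in both panels P4HA1, MXI1 and NDRG1 keep more than the median gene in every library.

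By test, 8 of 9 members fell by 8 h in shALKBH5 beside 96.0% of all genes, and 7 of 9 in shNS beside 82.2%. On the deposited scale 9 of 9 fell by 12 h, beside 99.6% of genes in shALKBH5 and 99.5% in shNS, but with the 12 libraries scaled to one another, which removes the fall common to all genes, P4HA1, MXI1 and NDRG1 had changes above 0 at both times and in both arms, BNIP3 at 8 h in both arms and at 12 h in shNS, and VEGFA at 12 h in shNS. The members' shares are thus close to those of any genes. NDRG1 was not called at 8 h in either arm, at -0.99 ± 0.51 (SE, limma adjusted p = 0.0759) in shALKBH5 and -0.70 ± 0.51 (0.211) in shNS, nor was P4HA1 in shNS at -0.36 ± 0.42 (0.43). With the hairpin line and the shNS replicate number as a block these 3 were called (adjusted p = 4.04e-09, 4.05e-05 and 0.038). Such block p-values went down to 2.78e-236, for DDIT4 at 12 h in shNS, with 2 libraries a group. They thus lean on a spread pooled over genes, and no label pairs the shNS numbers. They may be far too small and do not settle the 3 cases. By 12 h the changes ran from -5.56 ± 0.29 for DDIT4 to -2.28 ± 0.51 for NDRG1 in shALKBH5, and from -5.86 ± 0.29 for DDIT4 to -1.72 ± 0.21 for MXI1 in shNS, beside medians of -2.80 and -2.56 for all genes. Relative to those medians, BHLHE40 stood at -1.62 in shALKBH5 and -1.43 in shNS and DDIT4 at -2.76 in shALKBH5 and -3.30 in shNS by 12 h, while NDRG1, MXI1 and P4HA1 stood 0.36 to 0.84 above them. With the libraries scaled to one another, BHLHE40, EGLN1 and DDIT4 were called lower and MXI1 higher at both times and in both arms, KDM3A was called lower except at 12 h in shNS, and P4HA1 was called higher at 12 h in shNS. Of all 9529 genes, this scaling called 2258 lower and 2026 higher at 8 h in shALKBH5, and 2302 and 2110 at 12 h. In shNS it called 2245 lower and 1804 higher at 8 h, and 2573 and 2341 at 12 h.

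Whether the members disappeared faster in the knockdown was tested as the difference of these changes between the arms. This equals the gap between the arms at 8 or 12 h minus that at 0 h. The genes were chosen with those gaps known, so the members' p-values here are not independent of the choice. None of the 9, and 0% of all genes, passed at 8 h or at 12 h in limma. At an unadjusted p under 0.05 stood 16.4% of all genes and 2 of 9 members, MXI1 and KDM3A, for 8 h, and 3.54% of genes and no member for 12 h. The difference at 8 h was negative for all 9, from -0.84 ± 0.59 for P4HA1 to -0.19 ± 0.30 for EGLN1 (SE), with a median of -0.56 beside -0.48 for all genes, close to one another. Under scaling of the libraries within each time, which takes out that common part, the values of NDRG1, EGLN1 and DDIT4 turn positive. With the line and replicate number as a block, 4 of 9 members were called lower at 8 h beside 26.1% of all genes, namely P4HA1 (-0.84, adjusted p = 0.00995), MXI1 (-0.73, 0.0217), KDM3A (-0.74, 0.0245) and BHLHE40 (-0.66, 0.033). The limits of the block p-values given above hold for these calls too. At 12 h the differences ran from -0.69 ± 0.59 for P4HA1 to 0.48 ± 0.30 for EGLN1, beside -0.19 for all genes, and with the block 0 of 9 members were called, beside 2.19% of all genes called lower. EGLN1 then had signals of 0.676 to 1.195, near the 1 added before the log, where changes come out too small. Without that addition it kept 5.145% in line D and 7.75% in E, against 5.09% and 6.43% in shNS.

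The lines gave different values. Against shNS, BNIP3 had a difference of the 8 h change of -1.10 in line D and 0.03 in E, NDRG1 of -0.62 in line D and 0.04 in E, and BHLHE40 of -0.27 in line D and -1.04 in E. P4HA1 (-1.16 in line D and -0.51 in E), MXI1 (-0.95 and -0.52) and KDM3A (-0.71 and -0.77) were negative in both. Whether the 2 lines differ in these changes was not tested.

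The level of the members in line D was then set against that in line E over the 3 times. The choice of genes did not rest on this contrast, but it was made with earlier results of these data known. Both hairpins aim at the same gene and each side is 1 line, so the p-values compare these libraries, not hairpins in general. The fit took the 3 times of a line as independent and gave all 9 members nearly the same SE (0.17 to 0.19). The SE and p-values may therefore be too small, above all where the gap changed with time, as for BNIP3 and BHLHE40. In line D 5 of 9 members were lower and 1 was higher (limma), beside 14.9% of all genes lower and 14.2% higher. NDRG1 differed most, at -1.34 ± 0.19 (SE, adjusted p = 9.31e-11, lower in 3 of 3 times), followed by P4HA1 at -1.04 ± 0.18 (4.8e-07) and BNIP3 at -0.96 ± 0.18 (3.51e-06), both also lower at 3 of 3 times. DDIT4 stood at -0.56 ± 0.18 (adjusted p = 0.0126) and VEGFA at -0.53 ± 0.18 (0.0189), lower in line D at each time. BHLHE40 was higher in line D at 0.50 ± 0.18 (adjusted p = 0.0253), at 8 and 12 h and not at 0 h. MXI1, KDM3A and EGLN1 were not called, at -0.14 ± 0.18, -0.12 ± 0.18 and -0.01 ± 0.17 (SE). The signal of ALKBH5 was 25.4 in line D and 21.2 in E at 0 h, 1.52 and 4.29 at 8 h and 0.636 and 0.973 at 12 h, and its part in these differences was not tested.

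**Figure D4:**
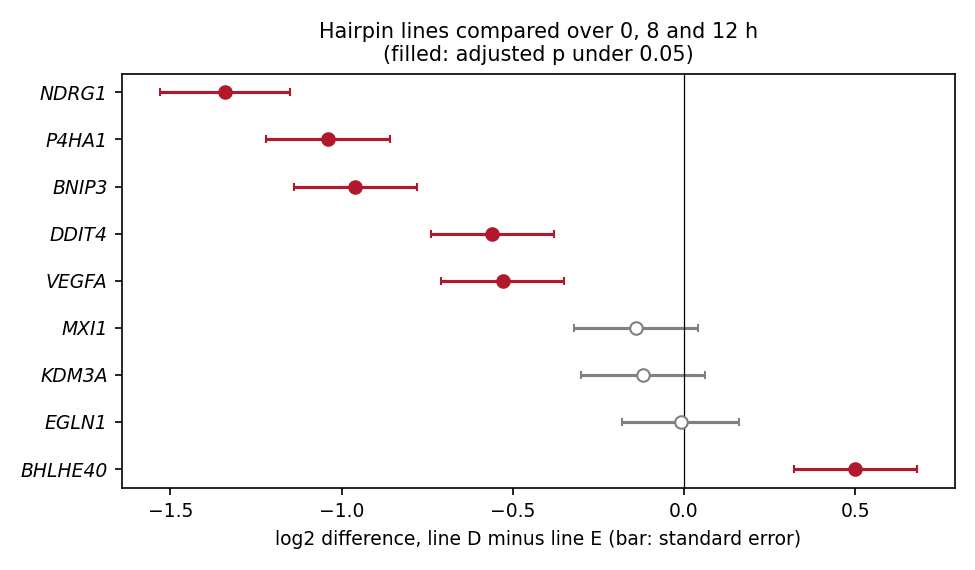
Log2 difference of line D minus line E over 0, 8 and 12 h (horizontal axis, log2 of signal + 1, bars are standard errors) for the 9 members. Filled points passed adjusted p 0.05, and they run from -1.34 for NDRG1 to 0.50 for BHLHE40.

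NDRG1, P4HA1 and BNIP3 stayed called in all 20 alternatives, the 12 that leave out 1 library each among them. Leaving out a shNS library cannot move the difference of line D minus line E, only its p-value. In those runs it stayed at -1.34 for NDRG1, -1.04 for P4HA1 and -0.96 for BNIP3. The calls of the other 3 hung on single libraries. DDIT4 lost its call without line D at 0 h (-0.42, adjusted p = 0.0754), line E at 0 h (-0.41, 0.176) or line E at 12 h (-0.47, 0.11). VEGFA lost it without line D at 8 h (-0.36, 0.117), line D at 12 h (-0.55, 0.0699), line E at 0 h (-0.40, 0.166) or line E at 8 h (-0.46, 0.176). BHLHE40 lost it without line D at 12 h (0.30, 0.362), line E at 8 h (0.39, 0.262) or line E at 12 h (0.26, 0.417). With a whole time left out, DDIT4 lost its call without the 12 h libraries, VEGFA without the 8 h libraries and BHLHE40 without either.

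Across the 12 libraries, with the mean of each time taken out, each member followed the mean of the other 8 to a different degree. Pearson r was highest for VEGFA (0.983) and P4HA1 (0.981) and lowest for BHLHE40 (0.831), EGLN1 (0.86) and DDIT4 (0.874). These 12 values share the hairpin lines D and E and the arms, so r describes mainly the gap between shALKBH5 and shNS and has no test. The mean of the members, relative to its time, was lowest in line D, at -0.714, -1.13 and -0.812 log2 at 0, 8 and 12 h, followed by line E at -0.315, -0.442 and -0.499, against 0.429 to 0.881 in the shNS libraries. Outside the lists, the 8 genes whose profile was most like that mean were PAM (r = 0.989), SH3BP5 (0.988), C9orf91 (0.988), TPSAB1 (0.987), LTA4H (0.986), TBC1D5 (0.985), AGO4 (0.982) and SEMA6B (0.982), each over the 12 libraries. PAM, a peptide-amidating enzyme, had a signal of 14.2 in line D and 15.4 in E at 0 h, against 22.9 and 21.4 in the shNS replicates. SH3BP5 had 25.1 in line D and 26.5 in E, against 59.0 and 52.9. Their differences of shALKBH5 minus shNS across times ran from -1.39 ± 0.18 for SEMA6B to -0.83 ± 0.14 for PAM (SE), a description, since likeness to the members chose them.

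In the gene models of GENCODE release 29 (GRCh38) 4 of the members lie on chromosome 10, with BNIP3 at 131966455 to 131982013 and P4HA1 at 73007217 to 73096974 on the minus strand, and MXI1 at 110207605 to 110287365 and DDIT4 at 72273920 to 72276036 on the plus strand. EGLN1 spans 231363751 to 231425044 on the minus strand of chromosome 1, and KDM3A 86440647 to 86492716 on the plus strand of chromosome 2. BHLHE40 spans 4979116 to 4985323 on the plus strand of chromosome 3, and VEGFA 43770184 to 43786487 on the plus strand of chromosome 6. P4HA1, BHLHE40, MXI1, VEGFA and DDIT4 each share exonic bases with 1 gene on the opposite strand. The design text names a stranded library kit, but the setting used in counting was not stated, so reads of these pairs may not be told apart. BNIP3 has 39 annotated pseudogenes and EGLN1 has 1, and values of BNIP3 and EGLN1 are uncertain as far as reads could be shared with them. None of these partners or pseudogenes was among the genes of the deposited table.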

How the data were processed

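Poly(A) RNA-seq of 12 NOMO-1 libraries was used. Per the labels they form 6 groups of 2 by hairpin and time. The deposited values are a normalised expression signal per gene symbol, with no 0 among them. STAR, RSEM and GRCh38 are named in the submitters' processing notes, without versions, settings or the unit behind the signal. The medians of the 46 ERCC spike-in transcripts were nearly equal in all libraries (29.9 to 33.1) while gene totals fell with time, so scaling to the spike-ins seems likely, though no label states it. Depth is unknown and no interval was computed.

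The 9 members, the other lists and the tests were chosen with earlier results of these data known. All 9529 genes were tested as log2(signal + 1) with limma 3.58.1 in R 4.3.3 (mean-variance trend, empirical Bayes, Benjamini-Hochberg over all genes, adjusted p under 0.05). The procedure was tried on simulated data with independent libraries, which cannot check its p-values where libraries of a line are correlated. A model of 6 group means gave the differences at each time, the changes by 8 and 12 h and the differences of changes. The comparison across times came from an additive fit of time plus arm, and that of line D with line E from a fit of time plus line. Both of these fits treat the libraries of a line at different times as independent, so their SE and p-values may be too small. No label calls the replicates separate cultures. The p-values therefore reflect spread among these libraries alone, possibly technical, and each shALKBH5 group holds both hairpins, so its spread includes their difference.

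Named genes were the 9 members, ALKBH5, the core pathway genes HIF1A, ARNT, VHL and EPAS1, relatives and partners of the members, the 4 called genes with the largest difference in each of 2 lists, and the 8 genes most like the members. HMOX1, PLAUR, HK1, HILPDA, SLC2A1 and the monocytic markers were singled out after their values were seen. Alternatives were a pseudocount of 0.1, a mean of at least 5 (8068 genes), median-of-ratios scaling within each time or over all libraries, rescaling by the mean log2 ERCC signal, limma without trend, a replicate block, each line alone and each library left out. Added after seeing the data were line means, a correlation estimated within lines, and leaving out the 8 h or the 12 h libraries. Whether numbers pair the samples was checked by the correlation across genes of the deviations from the group means. For the shALKBH5 lines, which are the same cells at each time, it was 0.777, 0.657 and 0.9, and for the shNS replicate numbers 0.271, 0.0651 and 0.138. Promoters are from RefSeq (GRCh38.p14) and gene positions from GENCODE 29.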

Additional observations from a re-analysis of the deposited data

Results flagged for a closer look

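For 6 members the hairpin lines, which share their target, differed from each other by a test of the difference itself (limma, line D minus line E over 3 times, log2 scale, 1 line a side). NDRG1 stood at -1.34 (SE 0.19, adjusted p = 9.31e-11), P4HA1 at -1.04 (SE 0.18, 4.8e-07), BNIP3 at -0.96 (SE 0.18, 3.51e-06), DDIT4 at -0.56 (SE 0.18, 0.0126) and VEGFA at -0.53 (SE 0.18, 0.0189), each lower in line D at 3 of 3 times. BHLHE40 stood at 0.50 (SE 0.18, adjusted p = 0.0253), higher in line D at 8 and 12 h. Among all genes 14.9% were called lower and 14.2% higher in line D. The 3 times of 1 line are not independent units, so these SE and p-values may be too small.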

How the results depend on the processing

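The differences of shALKBH5 minus shNS of the 9 members stayed negative at 0 h and across times in each alternative run, and the count of other hypoxia targets that fell stayed within 1.5 times of 21. Filtering made no further alternative, since all 9529 genes have a mean of at least 1. Median-of-ratios scaling over all libraries, which by construction removes the fall common to all genes, gave for the 8 h change in shALKBH5 and shNS 0.19 and 0.26 for BNIP3, 0.55 and 0.79 for MXI1, 0.85 and 0.60 for NDRG1 and 0.57 and 0.93 for P4HA1. For the 12 h change it gave 0.64 and 1.22 for MXI1, 0.89 and 0.88 for NDRG1, 0.55 and 1.21 for P4HA1, and in shNS 0.39 for BNIP3 and 0.33 for VEGFA. It called 4284 genes at 8 h and 4412 at 12 h in shALKBH5 and 4049 and 4914 in shNS, with 5 members in shALKBH5 at each time and 5 in shNS at 12 h.

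The difference of the 8 h change turned positive with scaling within each time for DDIT4 (0.16), EGLN1 (0.23) and NDRG1 (0.23), with scaling over all libraries (0.17, 0.13 and 0.25), in line D alone for DDIT4 (0.06) and in line E alone for BNIP3 (0.03), EGLN1 (0.27) and NDRG1 (0.04). That of the 12 h change turned for NDRG1 with either scaling (0.02 and 0.01) and in line E alone (0.02), for BNIP3 in line E alone (0.10) and for BHLHE40 in line D alone (0.26). With the replicate block 2493 genes and 4 members were called for 8 h and 222 genes for 12 h, where without it 0 were; line D alone gave 6285 genes and 7 members and 1293 genes and 2 members, line E alone 102 genes and 1 member and 224 genes and 2 members. The shNS replicate numbers share only a number, and the cause was not tested.

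Across times 2008 genes were called, against 3655 and 3673 with scaling within times and over all libraries, 3443 with the block, 3465 in line D alone, 4016 in line E alone, 490 with line means, 918 with a correlation estimated within lines and 430 without the 12 h libraries. Glycolysis genes that fell numbered 6 without the 12 h and 7 without the 8 h libraries. At 0 h 140 genes were called, against 18 with the pseudocount of 0.1, 82 with a mean of at least 5, 35 with scaling over all libraries, 2935 with the block, 5006 in line D alone and 2078 in line E alone. Scaling within times moved the median of all genes at 0 h to -0.01, against 0.23, with 93 higher and 113 lower in place of 127 and 13, and across times 1815 and 1840 in place of 1137 and 871. In line E alone EPAS1 stood at 0.19 and HIF1A at -0.05, and in line D alone VHL at -0.02. Line D minus line E called 2777 genes, against 5122 and 5045 with the scalings and 1312 without the 12 h libraries, and without the 8 h libraries EGLN1 stood at 0.21 and MXI1 at 0.02.

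Leaving out each library in turn, the difference of the 12 h change ran from -1.01 to 0.15 for BHLHE40, -0.97 to 0.24 for BNIP3, -0.18 to 0.79 for DDIT4 and -0.83 to 0.52 for NDRG1, and that of the 8 h change from -1.24 to 0.16 for BNIP3, -0.81 to 0.16 for DDIT4, -0.42 to 0.05 for EGLN1 and -1.12 to 0.54 for NDRG1. Line D minus line E ran from -0.20 to 0.23 for EGLN1, -0.21 to 0.06 for KDM3A and -0.33 to 0.06 for MXI1. Counts of called genes ran from 0 to 7 (8 h) and 0 to 4 (12 h) for the differences of changes, 1221 to 2319 across times, 1 to 1018 at 0 h and 1469 to 3899 between the lines. A group left with 1 library is assumed to vary like the others. The depth is unknown, so its part in these limits cannot be given.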
